A study of Mus musculus with 4 samples.

Results

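Interferon-induced and MHC class I genes were examined in the mouse dentate gyrus after repeated electroconvulsive stimulation (ECS) and after chronic fluoxetine, a selective serotonin reuptake inhibitor (SSRI). The genes were a list of 49 symbols, comprising interferon receptors, their transcription factors, antiviral effectors, interferon-inducible GTPases, and the genes of MHC class I antigen presentation. A gene was measured when a probe set annotated to it alone averaged 50 or more in signal across the arrays, and its brightest probe set was used. By this rule 27 of the 49 genes were measured, out of 7935 genes measured on the arrays in all.

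RNA of C57Bl/6 mice was hybridized to 4 Affymetrix mouse genome 430A 2.0 arrays, and the methods describe the animals as male and 8 weeks old when bought. The ECS group received 11 sessions of bilateral shock under isoflurane, 4 a week over 3 weeks, and the sham group was handled identically but received no shock. The fluoxetine group drank 22 mg/kg per day for 4 weeks in water with 0.2% saccharin, and the vehicle group is labelled as given water. The labels place the ECS and sham samples at 6 h after the last session, whereas the methods state 24 h. RNA of each group was pooled, and the fluoxetine pool was made from mice chosen for a small frequency facilitation at the mossy fiber synapse (n = 3). Numbers of mice in the other pools are not given in the sources used here. Each group is thus 1 array without replicates, so no SD, test or p-value can be given for any value, and the small number of arrays limits how precise any value can be. In pooled bulk RNA, a change in the number of expressing cells and a change in RNA per cell cannot be told apart.

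The values are signal intensities as deposited, without a common scale, and all differences are log2 ratios of the treated array to its own control array. A gene is called higher or lower at a ratio of at least 1.5-fold, which is 0.585 on the log2 scale. Median signals past the filter were 219.3 (ECS), 236.45 (sham), 365.35 (fluoxetine) and 335.05 (vehicle). The median log2 ratio over the 7935 genes was -0.10 for ECS and 0.12 for fluoxetine, and counts are therefore also given with each array centred on its median. The only measure of scatter is the control spread. It is a scaled median absolute deviation, taken for each probe set from the sham and vehicle arrays (log2 sham over vehicle, centred) among the 500 probe sets with the most similar signals. It describes 2 control pools that also differed in handling and is no replicate error. Its median was 0.29 for the 27 genes and 0.19 for all genes measured. Of 12 markers of dentate granule cells, 9 were measured, with median log2 ratios of -0.59 for ECS and -1.10 for fluoxetine. With each treatment 5 were lower, where 6.47% (ECS) and 3.26% (fluoxetine) of all genes were. After centring, 3 were lower with ECS (4.18% of all genes) and 5 with fluoxetine (5.13%). Prox1, a transcription factor of granule cells, had signals of 98.3 (ECS), 112.4 (sham), 179.7 (fluoxetine) and 154.5 (vehicle).

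Interferons are secreted proteins that act through paired receptor chains and the JAK and STAT proteins. Type I interferon acts on genes with interferon-stimulated response elements (ISREs), through a complex that contains STAT2 and IRF9, and interferon gamma acts on genes with gamma-activated sites (GASs). The induced genes encode antiviral proteins, GTPases that attack intracellular pathogens, and the machinery that cuts peptides, carries them into the endoplasmic reticulum and displays them on MHC class I molecules. In the brain these genes are expressed by microglia, astrocytes and endothelial cells, and MHC class I molecules are also found on neurons.

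As the ISRE is the known control element of many of these genes, promoter windows from 250 bases before to 50 bases after the annotated start were searched for the ISRE core GAAANNGAAA on both strands. RefSeq windows (GRCm38.p6) were found for 25 of the 27 measured genes, all but Iigp1 and Tap2. The core was present in 10 of these 25 windows (40%), against 244 of 6480 windows of measured genes (3.77%). It was found in 7 of the 11 genes that were at least 1.5-fold higher with ECS, fluoxetine or both, and in 3 of the 14 with a window that were not. The GAS core TTCNNNGAA, searched in the same way, was present in 9 of 25 windows (36%), against 8.04% of the 6480. It was found in 3 of the 11 genes that were higher and in 6 of the 14 that were not. Of the 7 higher genes with the ISRE core, Gbp2 and Gbp3 averaged below a signal of 50 on the control arrays. B2m was no longer called after centring. Whether either core goes with the calls was not tested. A match is a description of the letters in the window and shows no binding. Stretches around the matches that lie before the start are printed below in the direction of the gene, with the core in capitals, to show the element in genes whose ratios were alike or unlike. Runs of capitals longer than 10 letters are overlapping matches, and capitals that begin with T are cores on the opposite strand.
B2m (chr2:122147528-122147577, plus strand): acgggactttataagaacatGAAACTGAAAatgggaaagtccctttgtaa
Bst2 (chr8:71537567-71537622, minus strand): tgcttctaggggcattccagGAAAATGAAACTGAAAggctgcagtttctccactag
Gbp2 (chr3:142620584-142620633, plus strand): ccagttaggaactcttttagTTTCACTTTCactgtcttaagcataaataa
Gbp3 (chr3:142559979-142560034, plus strand): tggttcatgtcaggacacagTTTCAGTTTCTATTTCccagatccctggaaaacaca
Ifit3 (chr19:34583353-34583436, plus strand): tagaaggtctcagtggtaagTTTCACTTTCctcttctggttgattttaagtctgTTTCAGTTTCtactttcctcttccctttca
Ifitm2 (chr7:140955978-140956027, minus strand): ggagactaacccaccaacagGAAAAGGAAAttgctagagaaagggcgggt
Igtp (chr11:58199502-58199551, plus strand): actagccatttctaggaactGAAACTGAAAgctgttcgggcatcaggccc
Irgm1 (chr11:48871421-48871470, minus strand): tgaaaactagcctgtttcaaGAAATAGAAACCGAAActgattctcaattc
The cores lay between 24 and 156 bases before the start in these 8 genes. Bst2, Gbp3 and Irgm1 each held a pair of overlapping cores, whereas Ifit3 held 2 separate cores. Ifitm3 and Psme1 had matches after the start. Bst2, Gbp2, Gbp3 and Ifit3 were higher with both treatments, whereas Ifitm2 and Irgm1 have the same core and were called with neither.

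Of the 27 genes, 6 were at least 1.5-fold higher with ECS (Bst2, Gbp2, Gbp3, H2-K1, Ifit3 and Igtp), where 3.84% of all genes measured were. With fluoxetine 10 were higher (B2m, Bst2, Gbp2, Gbp3, H2-D1, H2-K1, Ifit3, Ifitm3, Lgals3bp and Trim25), where 8.49% of all genes were. Both treatments shared 5 of these (Bst2, Gbp2, Gbp3, H2-K1 and Ifit3), where 2.79% of all genes were higher with both. Only Ifngr1 was lower with ECS (6.47% of all genes) and only Iigp1 was lower with fluoxetine (3.26% of all genes). The median log2 ratio of the 27 genes was 0.12 with ECS, with 16 above 0, and 0.52 with fluoxetine, with 22 above 0. Among all 7935 genes, 2823 were above 0 with ECS and 5304 with fluoxetine. After centring, 18 (ECS) and 21 (fluoxetine) of the 27 were above 0, against 4114 and 3901 of the 7935. For sham over vehicle, centred, the median of the 27 genes was 0.01.

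**Figure D1:**
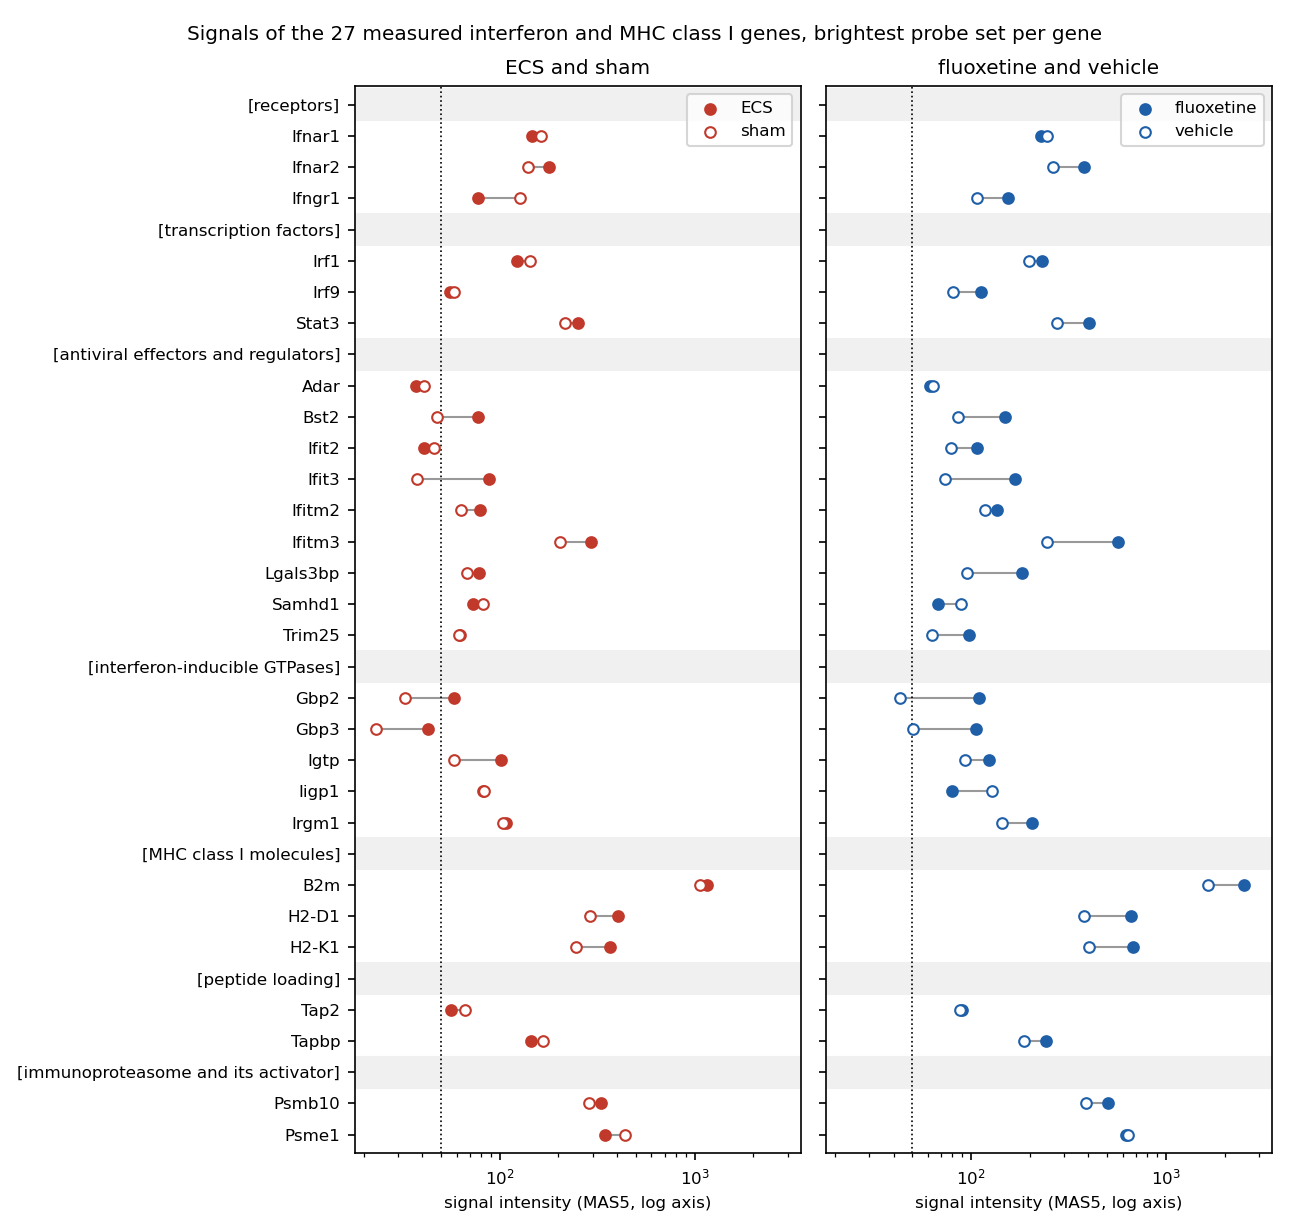
Signal intensity (log axis) of the 27 measured genes, grouped by role, with filled points for the treated array and open points for its control array. The left panel shows ECS and sham and the right panel fluoxetine and vehicle, 1 array each. The dotted line marks a signal of 50, below which sham signals of Adar, Bst2, Gbp2, Gbp3, Ifit2 and Ifit3 lie.

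The counts depended on scaling and on low signals. With each array centred on its median, 7 genes were higher with ECS (5.34% of all genes), 8 with fluoxetine (5.82%) and 6 with both (3.04%). Centring added Ifitm3 to the genes higher with ECS and removed B2m and Trim25 from those higher with fluoxetine. Ifngr1 with ECS (4.18% lower among all genes) and Iigp1 with fluoxetine (5.13%) stayed lower. With signals below 50 set to 50, 4 genes were higher with ECS (3.21% of all genes), 10 with fluoxetine (8.37%) and 3 with both (2.34%), since Gbp2 and Gbp3 were then no longer called with ECS. A gene with dim controls can pass the filter through its treated arrays alone. When the filter was put on the mean of both control arrays instead, an alternative added after the data were seen, 25 of the listed genes passed, without Gbp2 and Gbp3. Of these, 4 were higher with ECS (3.09% of 7863 genes), 8 with fluoxetine (7.39%) and 3 with both (2.14%).

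**Figure D2:**
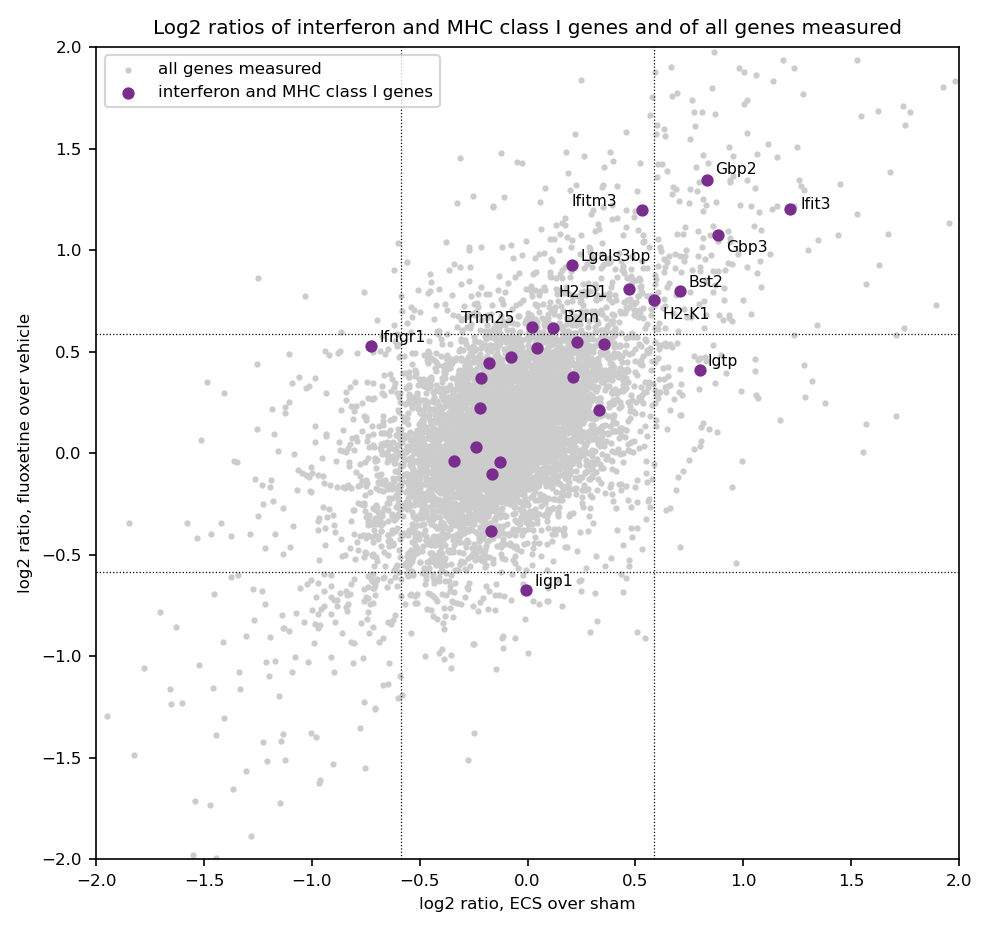
Log2 ratio of fluoxetine over vehicle against log2 ratio of ECS over sham for the 27 genes (large points) and all 7935 genes measured (small points), with dotted lines at 1.5-fold. The 13 genes past a line in either comparison are named, and 61 genes lie outside the axes; Bst2, Gbp2, Gbp3, H2-K1 and Ifit3 are past the line in both.

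Among the receptors, all 3 listed genes were measured and none was higher at 1.5-fold. Ifngr1, the ligand-binding chain of the interferon gamma receptor, had a signal of 77.0 in the ECS pool and 127.4 in the sham pool, and of 155.3 in the fluoxetine pool and 107.8 in the vehicle pool. The ECS pool was thus lower (log2 ratio -0.73) and the fluoxetine pool higher (0.53), beside a control spread of 0.28. After centring, the ratios of Ifngr1 were -0.62 with ECS and 0.40 with fluoxetine. The sham and vehicle pools themselves differed at this gene by 0.74 on the same centred scale. The ECS signal was thus below sham, while the centred ECS ratio was smaller in size than the difference between the controls. Ifnar1, a chain of the type I interferon receptor, had signals of 146.0 (ECS), 163.5 (sham), 227.9 (fluoxetine) and 245.1 (vehicle), with ratios of -0.16 and -0.10. Both lie within the control spread of 0.22. Its partner chain Ifnar2 had signals of 179.0 (ECS), 140.1 (sham), 379.2 (fluoxetine) and 261.7 (vehicle), with ratios of 0.35 and 0.54. A dimmer probe set of Ifnar2 gave -0.78 with ECS and 0.12 with fluoxetine, so the direction with ECS differed between probe sets.

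The measured transcription factors were Irf1, Irf9 and Stat3, and none was called in either comparison. Stat3, which transmits interleukin-6 family signals besides interferon, had signals of 252.3 (ECS), 215.1 (sham), 403.3 (fluoxetine) and 276.2 (vehicle). Its log2 ratios were 0.23 and 0.55, and a further probe set gave 0.06 and 0.23. A dimmer probe set of Stat3 just below the filter (mean signal 48.8) gave -0.62 and -0.58, the opposite direction in both comparisons. Irf9, the DNA-binding subunit of the type I interferon complex, had signals of 55.5 (ECS), 58.5 (sham), 112.0 (fluoxetine) and 80.7 (vehicle). Its ratio with ECS was -0.08 as deposited and 0.03 after centring, and with fluoxetine it was 0.47 as deposited. Irf1, a factor induced by interferon gamma, had ratios of -0.22 and 0.22, both within its control spread of 0.23. Irf7 and Stat2 were below the signal filter.

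Of 23 antiviral effectors and regulators, 9 were measured, with median log2 ratios of 0.21 for ECS and 0.62 for fluoxetine. Ifit3, a tetratricopeptide protein of the antiviral response, had a signal of 88.0 in the ECS pool against 37.8 in the sham pool, and 168.6 in the fluoxetine pool against 73.2 in the vehicle pool. Both treated pools were above their own controls, 2.33-fold with ECS (log2 ratio 1.22) and 2.30-fold with fluoxetine, while its control spread was 0.32. With signals below 50 set to 50, the ratio with ECS was 0.82. Its neighbor Ifit2, which is adjacent in the gene order, had 40.8 (ECS), 46.2 (sham), 106.9 (fluoxetine) and 78.6 (vehicle), and thus ratios of -0.18 and 0.44. Both the ECS and the sham signal of Ifit2 were below 50, so its ratio with ECS is 0.00 at that floor, and its control spread was 0.36. With ECS Ifit3 was called and Ifit2 was not, and whether the adjacent genes differed was not tested.

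Bst2, which encodes tetherin, a membrane protein that holds back budding virus, had signals of 77.6 (ECS), 47.5 (sham), 149.4 (fluoxetine) and 85.9 (vehicle). Its ratios were 0.71 (1.63-fold) and 0.80 (1.74-fold), against a control spread of 0.33 and a sham over vehicle ratio of -0.35. Ifitm3, a membrane protein that blocks viral entry, was the brightest gene of this group, with 293.0 (ECS), 202.5 (sham), 565.4 (fluoxetine) and 246.5 (vehicle). It was 2.29-fold higher with fluoxetine, and its ratio with ECS was 0.53 as deposited and 0.64 after centring, against a control spread of 0.19. Its relative Ifitm2 had signals of 79.1 (ECS), 62.9 (sham), 136.4 (fluoxetine) and 117.7 (vehicle), with ratios of 0.33 and 0.21. In both relatives the treated signal was above its control, but only Ifitm3 passed 1.5-fold.

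Lgals3bp, a secreted glycoprotein that binds galectin-3, had 78.1 (ECS), 67.7 (sham), 181.5 (fluoxetine) and 95.6 (vehicle). It was higher with fluoxetine by 0.92 (1.90-fold), and its ratio with ECS was 0.21, within the control spread of 0.29. Trim25, a ubiquitin ligase that activates the RNA sensor RIG-I, had 62.4 (ECS), 61.5 (sham), 97.1 (fluoxetine) and 63.1 (vehicle). Its ratio with fluoxetine was 0.62 as deposited and fell under 1.5-fold after centring, while sham and vehicle differed by 0.47 at this probe set, which may also bind other transcripts. Adar, an RNA-editing enzyme, and Samhd1, which degrades deoxynucleotides, had ratios of -0.13 and -0.17 with ECS and of -0.05 and -0.39 with fluoxetine. These 2 were the antiviral genes with negative ratios in both comparisons.

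All 5 listed interferon-inducible GTPases were measured. The guanylate-binding proteins Gbp2 and Gbp3 had the lowest control signals of the called genes. Gbp2 had a signal of 57.9 in the ECS pool against 32.5 in the sham pool, and 110.2 in the fluoxetine pool against 43.4 in the vehicle pool. Its ratios were 0.83 (1.78-fold) and 1.34 (2.54-fold), against a control spread of 0.37, and 0.21 and 1.14 with signals below 50 set to 50. Gbp3 had 42.6 (ECS), 23.1 (sham), 105.5 (fluoxetine) and 50.1 (vehicle), with ratios of 0.88 and 1.07. Both of its sham and ECS signals were below 50, so its ratio with ECS is 0.00 at that floor, and its sham signal was below its vehicle signal by 0.61 after centring. With fluoxetine both genes stayed past 1.5-fold at the floor.

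The immunity-related GTPases did not move together. Igtp had signals of 101.0 (ECS), 58.1 (sham), 123.6 (fluoxetine) and 93.1 (vehicle), and was called with ECS (0.80, 1.74-fold) but not with fluoxetine (0.41, 1.33-fold). Irgm1 had 107.0 (ECS), 103.9 (sham), 206.0 (fluoxetine) and 143.8 (vehicle), with ratios of 0.04 and 0.52 beside a control spread of 0.25. Iigp1, which attacks the vacuoles of intracellular parasites, had 82.1 (ECS), 82.5 (sham), 79.8 (fluoxetine) and 127.3 (vehicle). With ECS its ratio was -0.01, and with fluoxetine it was -0.67, beside a control spread of 0.32. A dimmer probe set below the filter gave 0.52 and -0.33. Whether Igtp or Iigp1 differed between the treatments was not tested.

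The MHC class I molecules were among the brightest genes of the list, led by B2m. B2m, the beta-2 microglobulin light chain shared by class I molecules, had a signal of 1152.5 in the ECS pool against 1063.1 in the sham pool, and 2525.0 in the fluoxetine pool against 1647.6 in the vehicle pool. Its ratio was 0.12 with ECS, within the control spread of 0.14, and 0.62 (1.53-fold) with fluoxetine. A further probe set of B2m gave 0.09 and 0.35, so that only its brightest probe set passed 1.5-fold with fluoxetine, and centring brought that below 1.5-fold as well (0.49).

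H2-K1, a classical heavy chain, had signals of 369.2 (ECS), 245.7 (sham), 678.4 (fluoxetine) and 402.0 (vehicle). Its ratio with ECS was 0.59 (1.50-fold), just past the size called, and with fluoxetine it was 0.75 (1.69-fold), against a control spread of 0.17. Its 2 other probe sets gave -0.03 and 0.05 with ECS, and 0.50 and 0.55 with fluoxetine. H2-D1, the other classical heavy chain, had 404.8 (ECS), 291.9 (sham), 663.6 (fluoxetine) and 378.7 (vehicle), with ratios of 0.47 (1.39-fold) and 0.81 (1.75-fold). Its other probe sets gave 0.71 and 0.13 with ECS, and 0.81 and 0.71 with fluoxetine. With fluoxetine all 8 probe sets of these 3 genes were above 0, from 0.35 to 0.81, where 5304 of all 7935 genes measured were above 0. With ECS the 8 probe sets ranged between -0.03 and 0.71, and which heavy chain passed 1.5-fold depended on the probe set. Heavy chain genes are near-identical over long stretches, and the probe sets used for H2-K1 and H2-D1 are of a type that may bind several transcripts, so their signals cannot be assigned to each gene with certainty.

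**Figure D3:**
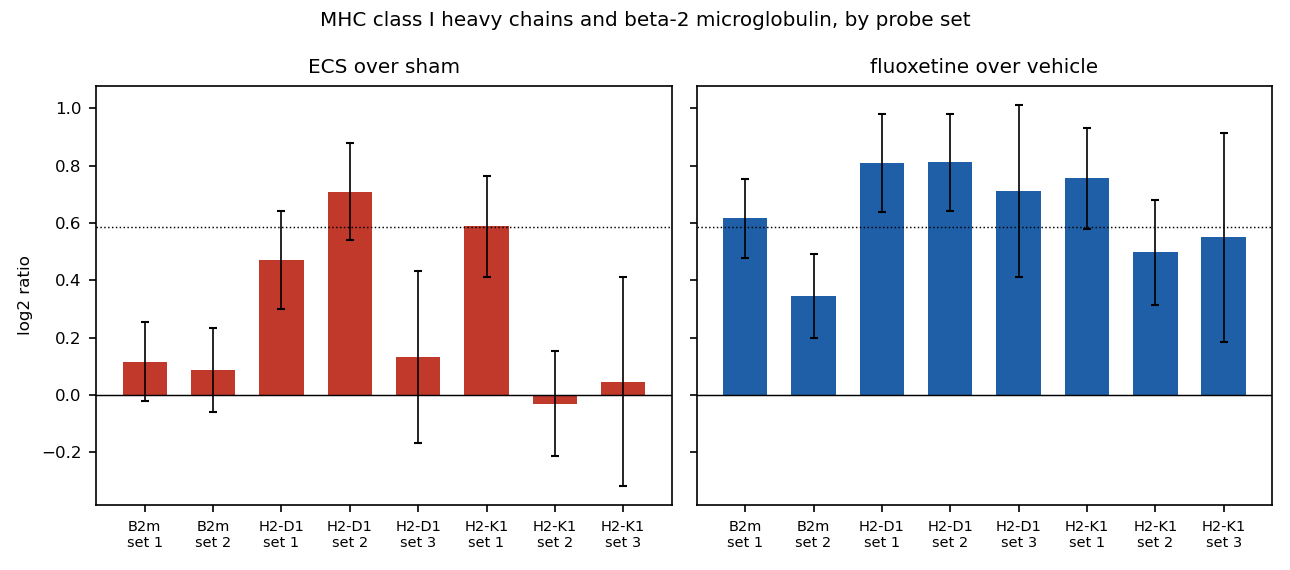
Log2 ratios of the 8 probe sets of B2m, H2-D1 and H2-K1 past the signal filter, for ECS over sham (left) and fluoxetine over vehicle (right), numbered from the brightest of each gene. Error bars show the control spread of that probe set on each side, which is no replicate error, and the dotted line marks 1.5-fold; with fluoxetine all 8 bars lie above 0, from 0.35 to 0.81.

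None of the measured genes of the steps before display (Tap2, Tapbp, Psmb10 and Psme1) passed 1.5-fold. Of all genes, 3.84% were higher and 6.47% lower with ECS, and 8.49% and 3.26% with fluoxetine. So few genes cannot show a difference from those shares. Tap2, a subunit of the peptide transporter, had signals of 56.0 (ECS), 66.2 (sham), 89.9 (fluoxetine) and 88.0 (vehicle), with ratios of -0.24 and 0.03. The ratio with fluoxetine was -0.09 after centring. Tapbp, which encodes tapasin and holds the transporter to the class I molecule, had 143.7 (ECS), 166.7 (sham), 240.9 (fluoxetine) and 186.5 (vehicle), with ratios of -0.21 and 0.37. Both genes were within 1.5-fold in both comparisons. Both had a lower signal in the ECS pool than in the sham pool, where only 2823 of all 7935 genes were above 0. After centring, their ratios with ECS were -0.13 (Tap2) and -0.11 (Tapbp), within control spreads of 0.33 and 0.23.

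Psmb10, a catalytic subunit of the immunoproteasome, had signals of 330.3 (ECS), 285.3 (sham), 505.6 (fluoxetine) and 390.1 (vehicle), with ratios of 0.21 and 0.37. Psme1, a subunit of the proteasome activator PA28, had 348.1 (ECS), 441.0 (sham), 624.7 (fluoxetine) and 640.9 (vehicle), with ratios of -0.34 and -0.04 beside a control spread of 0.18. Neither of these 2 measured genes, of 5 listed in the group, was called, and Psmb8 and Psmb9 were below the filter. The medians of the 2 were -0.06 and 0.17, beside 0.47 and 0.75 for the 3 MHC class I molecules. With so few genes the medians allow no contrast between the groups.

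The 22 listed genes not measured fall into 3 sets. Isg15, H2-T23, Psme2 and C4b had only probe sets annotated to several genes and were left out. Ifi44 and Xaf1 are not named in the annotation of this array. The remaining 16 were below the signal filter, just outside which were Eif2ak2 (mean signal 46.48), Irf7 (46.0) and Rtp4 (45.2), while Adar (50.65) and Gbp3 (55.3) were just inside.

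Low signals allow little to be said of these 16, and their ratios are given as values only. Usp18, a protease that removes ISG15 and restrains the type I receptor, had 52.3 (ECS), 11.8 (sham), 31.8 (fluoxetine) and 18.9 (vehicle). Oasl2, a relative of the oligoadenylate synthetases, had 28.5 (ECS), 12.8 (sham), 43.7 (fluoxetine) and 8.2 (vehicle). In both genes the treated signals exceeded the control signals, but only the ECS signal of Usp18 was above 50, so its ratio with ECS at the floor of 50 is 0.06. Eif2ak2, the RNA-activated kinase PKR, had 36.4 (ECS), 29.3 (sham), 77.6 (fluoxetine) and 42.6 (vehicle), and at the floor its ratio with fluoxetine was 0.63. Psmb8, an immunoproteasome subunit, had 39.9 (ECS), 23.2 (sham), 63.5 (fluoxetine) and 38.0 (vehicle). Psmb9 and Tap1, which stand in the gene order in a row with Psmb8 and Tap2, had ECS signals of 26.7 and 41.1, sham signals of 35.7 and 30.5, fluoxetine signals of 42.3 and 38.3, and vehicle signals of 48.0 and 38.1. The Mx1 and Mx2 signals lay between 1.2 and 9.9 on the arrays.

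The rest of the pathway was read from 2 further lists. Of 75 genes listed as other genes of interferon signalling, 23 were measured. Whether each listed gene, such as Ifrd1, acts in that signalling was not examined. The median log2 ratios of the 23 were -0.02 for ECS (0.09 after centring) and 0.18 for fluoxetine. With ECS, 1 of the 23 was higher (Sting1, an adaptor of cytosolic DNA sensing, 0.66), where 3.84% of all genes were. A further 1 was lower (Mavs, an adaptor of RNA sensing, -1.37), where 6.47% of all genes were. With signals below 50 set to 50 neither was called. With fluoxetine 3 were higher (8.49% of all genes) and none lower, namely Ifitm1 (1.43), Jak1 (0.60) and Ifrd1 (0.62). After centring, 4 genes of this list were higher with ECS (5.34% of all genes) and only Ifitm1 was higher with fluoxetine (5.82%). Sting1, Mavs, Ifitm1, Jak1 and Ifrd1 were named after their values were seen. Ifitm1, of the same family as Ifitm3, had signals of 62.7 (ECS), 43.7 (sham), 176.8 (fluoxetine) and 65.6 (vehicle). Irf8, a factor of myeloid cells, was below the filter with 33.1 (ECS), 44.1 (sham), 58.3 (fluoxetine) and 50.1 (vehicle).

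Of 37 other genes of antigen presentation, 18 were measured, with medians of 0.06 and 0.14, near those of the interferon signalling list. Cd1d1, a class I-like molecule that presents lipids and pairs with beta-2 microglobulin, was higher with both treatments as deposited. It was the only such gene of either list, where 2.79% of all genes were higher with both. After centring, 1 gene of the interferon signalling list was also higher with both (3.04% of all genes). Cd1d1 had signals of 112.3 (ECS), 37.3 (sham), 191.2 (fluoxetine) and 43.0 (vehicle). Its ratios were thus 1.59 and 2.15, or 1.17 and 1.94 with signals below 50 set to 50. Both of its control signals were below 50, so Cd1d1 passed the filter only through its treated arrays. H2-M3, a nonclassical class I molecule named after its value was seen, was lower with ECS (-0.59), which was no longer called at the floor. Cd74, the invariant chain of MHC class II molecules, was below the filter, with 19.0 (ECS), 35.1 (sham), 46.1 (fluoxetine) and 50.9 (vehicle).

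Markers of cells that express interferon-induced genes moved with fluoxetine as well. Of 26 microglia and macrophage markers, 20 were measured, with medians of 0.53 for fluoxetine and -0.17 for ECS. With fluoxetine 9 were higher (8.49% of all genes) and none lower. With ECS 1 was higher (3.84% of all genes) and 4 were lower (6.47%). With ECS only 1 of the 20 was lower after centring, and likewise 1 with signals below 50 set to 50. Their summed signal was 5985 (ECS), 6634 (sham), 12654.5 (fluoxetine) and 9094.8 (vehicle). C1qb, a complement subunit made by microglia, had 499.4 (ECS), 441.4 (sham), 1290.5 (fluoxetine) and 732.4 (vehicle), and Cx3cr1, the fractalkine receptor, had 235.2 (ECS), 334.0 (sham), 440.1 (fluoxetine) and 376.9 (vehicle). Fluoxetine ratios of the microglia markers and of the interferon and MHC class I genes thus had like medians (0.53 and 0.52), whereas the ECS medians had opposite signs (-0.17 and 0.12). The part of microglia in the ratios was not tested.

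Reactive astrocyte markers stood higher with both treatments. The list of 28 includes Gbp2, H2-D1 and Iigp1, whose values are given above, and also Psmb8 and H2-T23. Of the other 23, 13 were measured, and none was lower. With ECS 6 were higher (median 0.33), where 3.84% of all genes were. With fluoxetine 10 were higher (median 1.09), where 8.49% of all genes were. With signals below 50 set to 50, 4 were higher with ECS (3.21% of all genes) and 10 with fluoxetine (8.37%). Those higher with fluoxetine include Cd44 (sham 27.7, vehicle 40.4) and Fbln5 (sham 33.8, vehicle 35.6). Both passed the filter only through their treated arrays. The summed signal of the reactive astrocyte markers outside the interferon and MHC class I list was 3711.7 (ECS), 2075.9 (sham), 8485.6 (fluoxetine) and 2982.5 (vehicle). Gfap, an intermediate filament of astrocytes, had 601.5 (ECS), 127.4 (sham), 1048.0 (fluoxetine) and 195.0 (vehicle), and Serpina3n, a protease inhibitor, had 473.7 (ECS), 94.3 (sham), 1169.7 (fluoxetine) and 153.2 (vehicle). Their part in the ratios of the interferon and MHC class I genes was not tested.

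With fluoxetine, astrocyte and endothelial markers had smaller medians than markers of microglia and reactive astrocytes. Of 15 astrocyte markers 14 were measured, with medians of 0.01 and 0.34, and summed signals of 19221.5 (ECS), 21703.3 (sham), 33216.5 (fluoxetine) and 29644.8 (vehicle). Of 18 endothelial markers 14 were measured, with medians of 0.07 and 0.13, and summed signals of 4144 (ECS), 4003.2 (sham), 6840.9 (fluoxetine) and 5776.2 (vehicle). Only 1 of 14 lymphocyte markers was measured (Ptprc, which microglia also express), and their summed signal was 142.9 (ECS), 149.8 (sham), 173.9 (fluoxetine) and 151.2 (vehicle). No marker of these lists had a signal of 0 on any array.

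**Figure D4:**
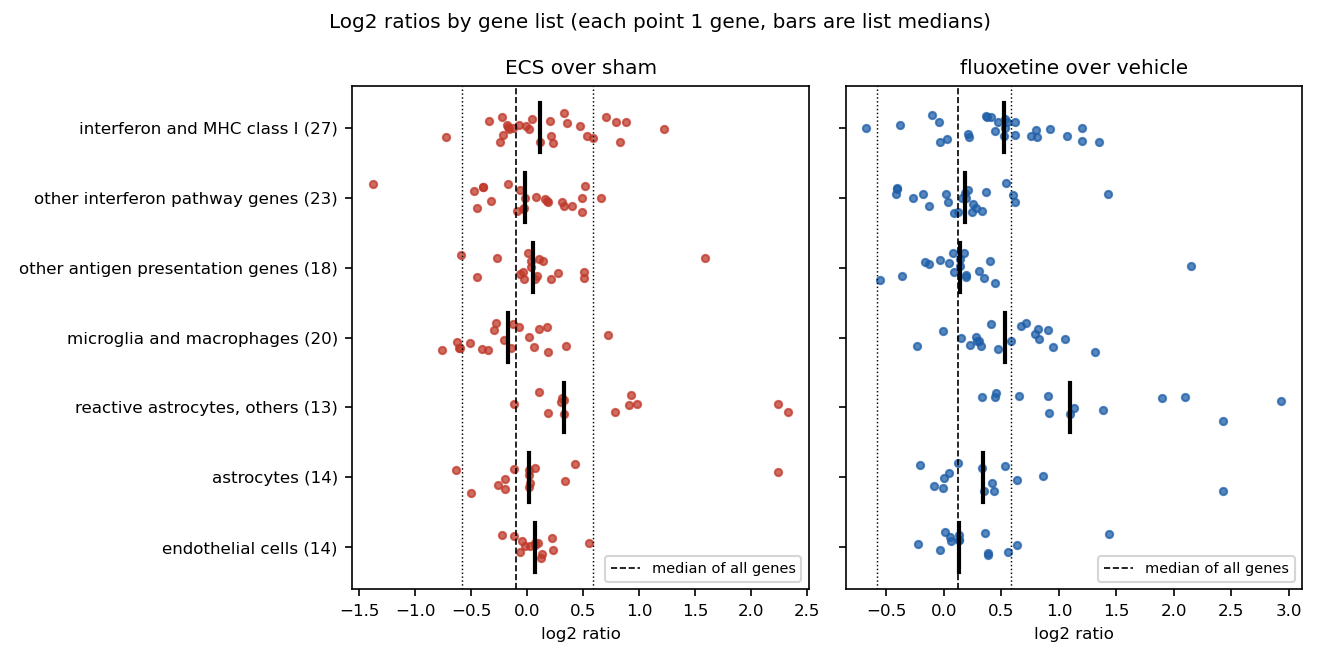
Log2 ratios of the measured genes of each list (1 point per gene, black bars at list medians) for ECS over sham (left) and fluoxetine over vehicle (right), with dotted lines at 1.5-fold and a dashed line at the median of all genes measured. The interferon and MHC class I genes have medians of 0.12 and 0.52, microglia markers of -0.17 and 0.53, and reactive astrocyte markers outside the interferon and MHC class I list of 0.33 and 1.09.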

How the data were processed

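The authors deposited 1 linear signal intensity per probe set, made with MAS5 (the statistical algorithm of Affymetrix, which summarizes the probes of each set), and the arrays were not brought to a common scale. The genome build is not given in the sources used here. The 4 arrays were grouped by the sample labels, and no columns of other samples were present. Of 22690 probe sets, 64 controls were left out. Of the other 22626, 20380 have 1 gene in the platform annotation, 691 several and 1555 none, and only those with 1 gene were used. Probe sets whose signal averaged 50 or more, the limit of the study's methods, were kept (13422), and the brightest per gene was used. A signal of 0 was taken as 0.1.

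Log2 ratios, counts and control spreads came from scripts in Python (3.11.15) that used pandas 2.3.3, scipy 1.17.1 and numpy 2.4.6. Figures were made in matplotlib 3.10.9. The steps were tested on simulated data. Promoter sequences are from RefSeq (GRCm38.p6). As there is 1 array per group, no test was run.

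The listed genes, the marker lists and the rules were chosen with earlier results of these data known. Named are the genes past 1.5-fold, all measured receptors, MHC class I, peptide loading and immunoproteasome genes, and the remaining measured members briefly. From the further lists, genes past 1.5-fold in both comparisons, Irf8, Cd74 and up to 3 markers per cell type are named. Alternatives were median-centring, quantile normalization, a floor of 50, a pseudocount of 16, a filter of 200 or none, the mean over probe sets, sizes of 1.2-fold and 2-fold, and, added after seeing the data, a filter on the control arrays.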

Additional observations from a re-analysis of the deposited data

Results flagged for a closer look

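Ifngr1 was flagged because its log2 ratios had opposite signs in the 2 comparisons, -0.73 with ECS and 0.53 with fluoxetine, which is a difference of 1.25. The difference was not tested, since each group is 1 array. These ratios are as deposited, and after centring they were -0.62 with ECS and 0.40 with fluoxetine. The sham and vehicle pools differed at this gene by 0.74 after centring, against a control spread of 0.28.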

How the results depend on the processing

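The 1.5-fold counts of the 27 genes depended most on the size called and on low signals. Percentages in parentheses are shares of all genes measured under the same setting. The number higher with ECS (6) was 3 (3.05%) with a pseudocount of 16 and 1 of 8 genes (2.81%) with a filter of 200. It was 13 of 43 (11.97%) without a filter, 1 (1.4%) at 2-fold and 10 (11.7%) at 1.2-fold. The number lower with ECS (1) was 0 (4.39%) with a filter of 200, 0 (1.41%) at 2-fold and 2 (26.1%) at 1.2-fold. The number higher with fluoxetine (10) was 4 (6.32%) with a filter of 200 and 18 (15.7%) without a filter. It was 4 (2.79%) at 2-fold and 19 (30.5%) at 1.2-fold. The number lower with fluoxetine (1) was 0 (2.70%) with the pseudocount and 0 (2.35%) with a filter of 200. It was 0 (0.81%) at 2-fold and 2 (11.2%) at 1.2-fold. The number higher with both (5) was 3 (2.34%) at the floor of 50 and 2 (2.29%) with the pseudocount. It was 1 (2.24%) with a filter of 200, 10 (5.28%) without a filter, 1 (1.03%) at 2-fold and 9 (8.59%) at 1.2-fold. With the filter on the control arrays it was 3 (2.14%). The median with ECS (0.12) was 0.23 after centring, 0.29 with a filter of 200 and 0.23 without a filter. It was 0.04 at the floor of 50, with the mean over probe sets and with the filter on the control arrays. The median with fluoxetine (0.52) was 0.39 after centring and 0.38 after quantile normalization. Fewer genes enter with the filter of 200 and more without a filter, and beyond this the cause was not tested. No ratio changed sign under these alternatives in the comparison in which its gene was called. No paired analysis was possible because each group has 1 array. Signals below 50 limit the ECS ratios of Adar, Bst2, Gbp2, Gbp3, Ifit2 and Ifit3.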

Other observations

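Outside the listed genes, 2 interferon-induced genes below the signal filter, chosen after their values were seen, had treated signals above their controls. Cxcl10, a chemokine, had signals of 66.1 (ECS), 6.7 (sham), 47.7 (fluoxetine) and 3.7 (vehicle). Ifi27l2a had 21.6 (ECS), 2.8 (sham), 51.3 (fluoxetine) and 7.6 (vehicle). In both genes only 1 of the 4 signals was above 50, so that the sizes of the ratios are uncertain.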
